A study of Homo sapiens with 6 samples.

Results

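The pyruvate dehydrogenase complex and the enzymes that switch it on and off were followed at the RNA level in MDA-MB-231, an established line of human breast cancer cells without hormone receptors or HER2 amplification. The cells had received vehicle or 30 µM PDBAG1, a peptide derived from the metabolic enzyme GPD1 and joined to a cell-penetrating sequence, for 24 h. The group comprised 10 genes taken by symbol, with no threshold on measured values: 4 pyruvate dehydrogenase kinases (PDK1, PDK2, PDK3 and PDK4), 2 phosphatases (PDP1 and PDP2) and 4 subunits of the complex (PDHA1, PDHB, DLAT and PDHX). All 10 were among the 17631 genes in the files. RNA-seq was available from 3 vehicle and 3 PDBAG1 libraries, all from the same line, so that every value describes 1 cell line at 1 dose and 1 time, although the tissue field of the labels reads breast cancer tissue. The labels number the libraries within each group without saying whether they came from separate cultures, so p values measure only the spread between these libraries.

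The pyruvate dehydrogenase complex sits in the mitochondrial matrix and converts pyruvate into acetyl-CoA, which joins glycolysis to the tricarboxylic acid cycle. PDHA1 and PDHB form its E1 component, DLAT is the E2 acetyltransferase core, and PDHX anchors the E3 dehydrogenase to that core. The kinases phosphorylate serines of PDHA1 and shut the complex down, and the phosphatases remove these phosphates. PDK1 and PDK3 are known to be induced under low oxygen, PDK4 in fasting, and PDK2 is widely expressed.

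Values are TPM, relative abundances that give every library the same total and are scaled per transcript length and can therefore be compared between genes. Of all genes, 12582 reached 1 TPM in at least 3 libraries and were tested with limma on the log2(TPM + 1) scale, with Benjamini-Hochberg adjustment over all of them. A log2 fold change on this scale understates the change of a gene with low TPM. Between 12392 and 12611 genes per library reached a TPM of 1, and no library stood apart. TPM keeps no record of depth, so the depth is unknown and no counting error can be given. Among markers known to be high in this line, VIM and CD44 rose with PDBAG1 (log2 fold changes of 0.46 and 0.59) and CAV1 fell (-0.30). EGFR, LGALS1 and S100A4 did not pass the test. Among markers known to be low, PGR was at 0 to 0.06 TPM and CDH1 at 0.43 to 0.84 TPM. In contrast, ERBB2 (24.7 TPM in the vehicle mean), EPCAM (5.14), GATA3 (3.59) and ESR1 (2.26 TPM) were above 1 TPM, and none of these 4 passed the test. The 7 measured markers of other cell types summed to 262 to 275 TPM with vehicle and to 324 to 345 TPM with PDBAG1. Most of this was CD68, which rose together with PECAM1 and PDGFRB (3 of the 4 that could be tested, beside 21.7% of all genes tested). The leukocyte marker PTPRC was at 0.86 to 1.41 TPM and the hepatocyte marker ALB at 0 to 0.13 TPM in the 6 libraries. The part of these markers in the results was not tested. In bulk RNA, a change in every cell and a change in the make-up of a culture cannot be told apart.

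With PDBAG1, transcripts of 3 kinases and 1 phosphatase were higher, and 2 subunits were lower by less than 0.2 on the log2 scale. PDK1, PDK3, PDK4 and PDP1 rose, PDHB and PDHX fell, and PDK2, PDP2, PDHA1 and DLAT did not pass the threshold. Thus 6 of the 10 genes had an adjusted p under 0.05 (limma), against 37.6% of all genes tested, 4 of them higher (21.7% of all genes) and 2 lower (15.9%). The count of lower genes was near the share over all genes tested. Without PDBAG1 replicate 2 only 3 of the 10 genes passed (PDK1, PDK4 and PDP1), and no subunit did. Without a trend of variance no subunit passed either. PDK1 was the 1 gene that also rose at least 1.5-fold, a step that 2.86% of all genes passed. For 7 members no PDBAG1 library fell within the range of the vehicle libraries, against 47.4% of all genes tested. The median log2 fold change was 0.49 over the 4 kinases, 0.33 over the 2 phosphatases and -0.10 over the 4 subunits, beside 0.03 over all genes tested.

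**Figure D1:**
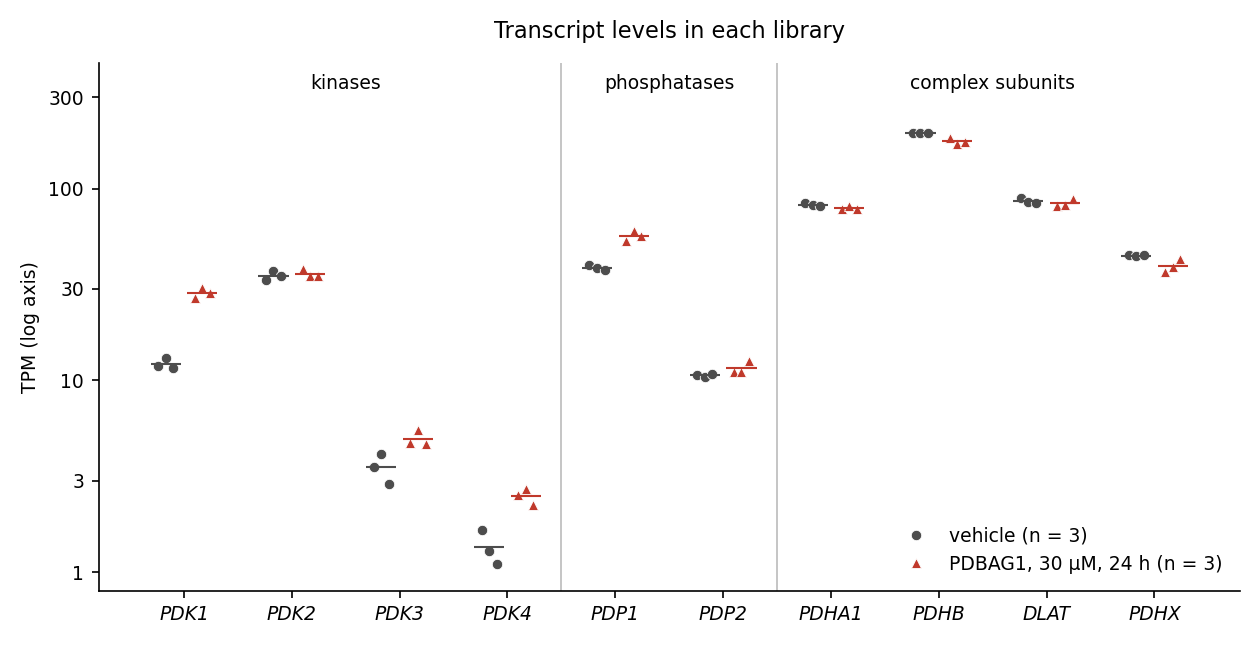
TPM (log axis) of the 10 genes in each of the 3 vehicle libraries (circles) and 3 PDBAG1 libraries (triangles), with horizontal bars at the group means. PDK1 shows the widest gap on this axis, at 11.6 to 13 TPM against 27.0 to 30.3 TPM, with narrower gaps for PDP1 and PDK4. The subunits lie between 36.9 and 195 TPM.

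In the vehicle group PDHB was highest (194 TPM), followed by DLAT (86.1), PDHA1 (82.5), PDHX (44.7), PDP1 (38.7), PDK2 (35.04), PDK1 (12.2), PDP2 (10.6), PDK3 (3.51) and PDK4 (1.35 TPM). The classes interleaved below the subunits, and only DLAT and PDHA1 overlapped among neighbours in this order. With PDBAG1 the order of mean levels changed at 1 place, where PDP1 (56.7 TPM) moved above PDHX (39.6 TPM) with no overlap between their libraries. In that group DLAT still overlapped PDHA1, and PDHX overlapped PDK2 (35.9 TPM).

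PDK1, the kinase best known as a target of hypoxia-inducible factors, lies on chromosome 2 (172555373 to 172608669, GRCh38, GENCODE v44, plus strand). Its TPM was 11.9, 13 and 11.6 in the vehicle libraries and 27.0, 30.3 and 28.6 in the PDBAG1 libraries. Every treated library was above every control library, by more than the spread within either group. The mean rose from 12.2 ± 0.724 to 28.6 ± 1.68 TPM (n = 3 each, SD), a linear ratio of 2.35. The log2 fold change was 1.17 (SE 0.07, adjusted p = 3.48e-08 by limma), the 44th highest among the 12582 genes tested. Across all 13 other settings it remained past the threshold, between 1.11 and 1.23. PDK1-AS1, a non-coding gene on the opposite strand, shares 3.00% of the exonic bases of PDK1 and was not measured.

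PDK2, which phosphorylates the complex in most tissues, was the main kinase transcript in the vehicle cells (chromosome 17, 50094737 to 50112152, plus strand). Its libraries were at 33.2, 37.1 and 34.8 TPM with vehicle and at 37.9, 34.97 and 34.8 TPM with PDBAG1. The ranges overlapped. The log2 fold change was 0.03, with a 95% confidence interval from -0.10 to 0.16 (adjusted p = 0.689 by limma), and its sign turned under quantile normalization (-0.0056), without vehicle replicate 1 (-0.0025) and without PDBAG1 replicate 1 (-0.0051). Its exons share 38.6% of their bases with SAMD14 on the opposite strand, and SAMD14 stayed at 0.05 to 0.34 TPM.

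PDK3 (chromosome X, 24465244 to 24550466, plus strand) was much scarcer. Vehicle libraries held 3.54, 4.12 and 2.88 TPM and PDBAG1 libraries 4.72, 5.48 and 4.63 TPM. The groups did not overlap, but the highest vehicle and the lowest PDBAG1 library were close. The log2 fold change of PDK3 was 0.40 (SE 0.11, adjusted p = 0.0127 by limma). The call did not hold without vehicle replicate 3 (log2 fold change 0.30, adjusted p = 0.0707 by limma), without PDBAG1 replicate 2 (0.34, adjusted p = 0.0642) or under quantile normalization (0.29, adjusted p = 0.0661).

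PDK4 (chromosome 7, 95583499 to 95596516, minus strand) was the lowest of the group and close to the 1 TPM needed to enter the test. It was at 1.66, 1.29 and 1.10 TPM with vehicle and at 2.52, 2.72 and 2.24 TPM with PDBAG1, again without overlap. The mean went from 1.35 ± 0.285 to 2.49 ± 0.241 TPM (n = 3 each, SD), a linear ratio of 1.85. On the log2(TPM + 1) scale the fold was 1.49 (log2 fold change 0.58, standard error 0.12, adjusted p = 0.00203 by limma), just under the 1.5-fold step. It passed that step at 1.81-fold with a pseudocount of 0.1, at 1.59-fold without vehicle replicate 1 and at 1.55-fold without PDBAG1 replicate 3, and its adjusted p was under 0.05 in all 13 other settings.

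PDP1, the calcium-stimulated phosphatase that reactivates the complex, rose alongside the kinases (chromosome 8, 93857807 to 93926068, plus strand). The vehicle libraries were at 39.8, 38.6 and 37.7 TPM and the PDBAG1 libraries at 53.6, 60.3 and 56.2 TPM. The gap between the groups was wider than the range within either. The mean rose from 38.7 ± 1.06 to 56.7 ± 3.38 TPM (n = 3 each, SD), a log2 fold change of 0.54 (SE 0.06, adjusted p = 6.68e-06 by limma). The call held in all 13 other settings, with log2 fold changes of 0.49 to 0.58, and none of them reached 1.5-fold.

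PDP2, the phosphatase that does not depend on calcium, changed less (chromosome 16, 66878589 to 66895754, plus strand). It was at 10.7, 10.4 and 10.8 TPM with vehicle and at 11.04, 11 and 12.67 TPM with PDBAG1. The values did not overlap, but the lower treated libraries, at 11 and 11.04 TPM, were close to the highest control, at 10.75 TPM. The log2 fold change was 0.11, with a 95% confidence interval from -0.05 to 0.28 (adjusted p = 0.279 by limma), and it did not pass in any of the 13 other settings.

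Among the 4 subunits 2 fell, both by less than 0.2 on the log2 scale. PDHB, the beta subunit of E1 (chromosome 3, 58427630 to 58433857, minus strand), was at 195, 194 and 194 TPM with vehicle and at 183, 170 and 175 TPM with PDBAG1. The vehicle libraries were nearly identical and all 3 treated libraries lay beneath them. PDHB fell by 0.14 on the log2 scale (SE 0.04, adjusted p = 0.0134 by limma). The call was lost without PDBAG1 replicate 2 (log2 fold change -0.12, adjusted p = 0.0740 by limma) and without a trend of variance (adjusted p = 0.0641). A non-coding gene on the opposite strand shares 7.63% of the exonic bases of PDHB. It was not measured, so its part in the values of PDHB was not tested.

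PDHX, the E3-binding protein (chromosome 11, 34915829 to 35020591, plus strand), was at 45.1, 44.3 and 44.8 TPM with vehicle and at 36.9, 39.1 and 42.9 TPM with PDBAG1. All treated libraries were lower, with 1 of them near the controls. The log2 fold change of PDHX was -0.17 (SE 0.06, adjusted p = 0.0336 by limma). This call was fragile. It was lost without any one of vehicle replicates 1, 2 and 3 or PDBAG1 replicates 1 and 2, where log2 fold changes were -0.12 to -0.18, and without the expression filter, without a trend of variance and with the replicate number as a block (adjusted p = 0.0670 by limma). APIP, which shares 4.09% of the exonic bases of PDHX on the opposite strand, was also lower with PDBAG1 (log2 fold change -0.24, adjusted p = 0.00140 by limma), and its part in the values of PDHX was not tested.

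PDHA1, the E1 alpha subunit that carries the regulatory serines (chromosome X, 19343893 to 19361718, plus strand), was at 84.5, 82.1 and 81.0 TPM with vehicle and at 77.9, 81.2 and 78.4 TPM with PDBAG1. The ranges touched, since 1 treated library exceeded the lowest control. The log2 fold change was -0.06, with a 95% confidence interval from -0.16 to 0.04 (adjusted p = 0.316 by limma). DLAT (chromosome 11, 112025408 to 112064404, plus strand) overlapped as well, with 88.8, 85.3 and 84.1 TPM against 80.7, 82.1 and 88.0 TPM. Its log2 fold change was -0.04, with a 95% confidence interval from -0.15 to 0.06 (adjusted p = 0.521 by limma). Neither gene passed in any other setting. Whether reads were counted by strand is not given in the sources used here, and MAP3K15 and PIH1D2 share 19.3% of the exonic bases of PDHA1 and 13.3% of those of DLAT on the opposite strand, at 3.62 to 6.99 TPM and 4.70 to 5.83 TPM. MAP3K15 rose from 3.87 ± 0.352 to 6.08 ± 0.814 TPM (n = 3 each, SD), with a log2 fold change of 0.54 (adjusted p = 0.00121 by limma), and its part in the values of PDHA1 was not tested.

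**Figure D2:**
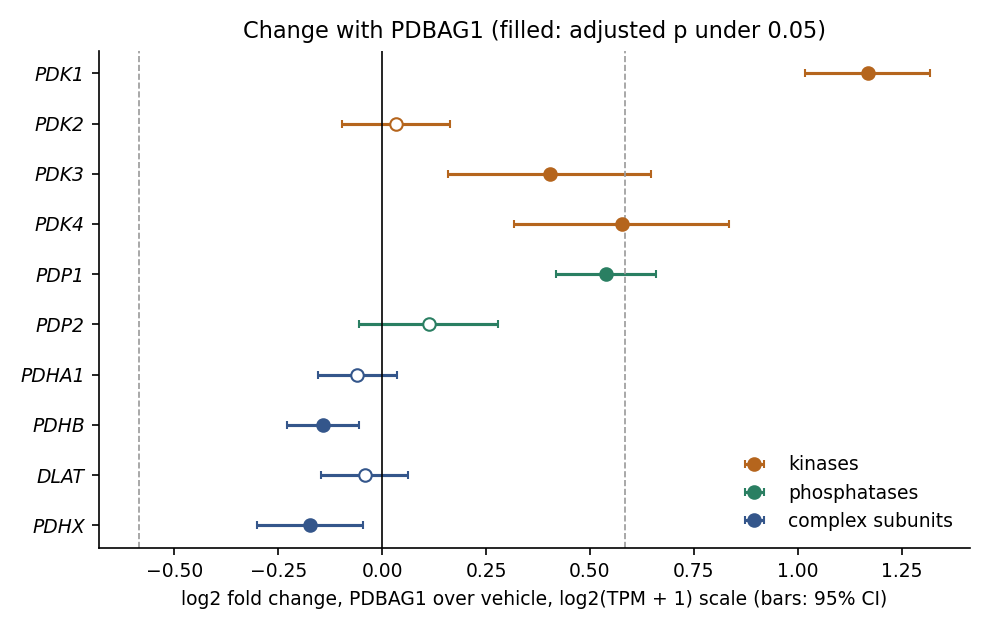
Log2 fold change of PDBAG1 over vehicle on the log2(TPM + 1) scale with its 95% confidence interval from limma for each gene, coloured by class, with dashed lines at 1.5-fold. Filled points passed an adjusted p of 0.05. The interval of PDK1 (1.02 to 1.32) lies wholly above the 1.5-fold line, and those of PDK2, PDP2, PDHA1 and DLAT cross 0.

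PDK1 made up a larger share of the kinase transcripts after PDBAG1. It contributed 23.7%, 23.4% and 23.1% of the summed kinase TPM in the vehicle libraries and 37.4%, 41.2% and 40.7% in the PDBAG1 libraries. The share of PDK2 went from 67.3% ± 1.58 to 49.9% ± 2.52 (n = 3 each, SD), again without overlap, although its own level showed no called change. PDK3 held 6.72% ± 0.895 and 6.86% ± 0.515 and PDK4 2.60% ± 0.607 and 3.46% ± 0.259 of the kinase sum (n = 3 each, SD), both with overlap between the groups. PDP1 made up 78.5% ± 0.569 of the phosphatase sum with vehicle and 83.0% ± 1.48 with PDBAG1 (n = 3 each, SD). Shares of the 4 subunits overlapped between the groups for each subunit, with PDHB at 47.7% ± 0.450 and 46.5% ± 1.58 of their sum (n = 3 each, SD).

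Summed by class, kinase and phosphatase transcripts were both higher with PDBAG1. The kinase sum was 50.4, 55.5 and 50.4 TPM with vehicle and 72.1, 73.5 and 70.3 TPM with PDBAG1. The phosphatase sum was 50.5, 49.0 and 48.5 TPM with vehicle and 64.6, 71.3 and 68.9 TPM with PDBAG1. In both classes all treated libraries were above all controls. The ratio of kinases to phosphatases was 1.06 ± 0.0694 with vehicle and 1.06 ± 0.0529 with PDBAG1 (n = 3 each, SD), and the libraries overlapped. This balance depends on the weighting. The difference of mean log2(TPM + 1) between kinases and phosphatases, in which scarce PDK3 and PDK4 count as much as PDK2, went from -1.35 ± 0.0980 to -1.13 ± 0.0978 (n = 3 each, SD). The groups did not overlap but nearly touched, at -1.257 in vehicle replicate 2 and -1.246 in PDBAG1 replicate 3. Between the single genes that moved most in each class, the ratio of PDK1 to PDP1 was 0.315 ± 0.0197 with vehicle and 0.505 ± 0.00341 with PDBAG1 (n = 3 each, SD). The groups did not overlap, but this pair was picked by its measured changes, so it says nothing further on the balance. Sums over chosen genes were given no test.

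Relative to the complex, both classes of regulator were higher. The subunit sum was 408 ± 5.11 TPM with vehicle and 379 ± 6.01 TPM with PDBAG1 (n = 3 each, SD). The ratio of kinases to subunits was 0.122, 0.137 and 0.125 with vehicle and 0.190, 0.197 and 0.183 with PDBAG1. The ratio of phosphatases to subunits was 0.121 ± 0.00106 and 0.180 ± 0.0104 (n = 3 each, SD). Neither ratio overlapped between the groups.

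**Figure D3:**
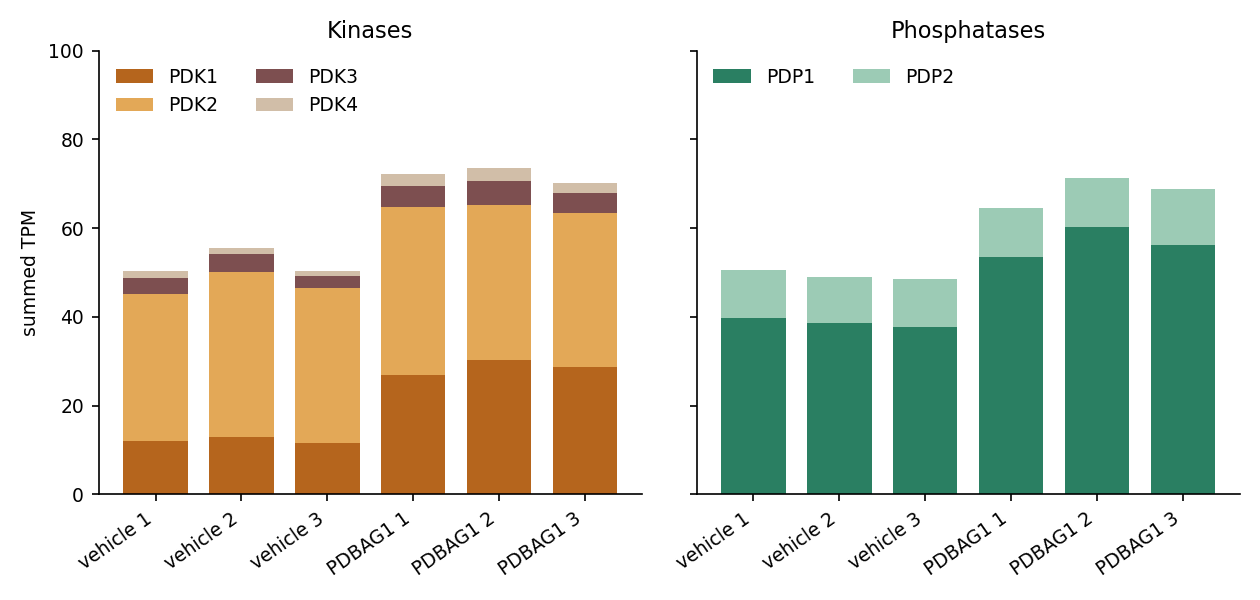
Summed TPM of the kinases (left) and the phosphatases (right) in each library, stacked by gene. Both stacks are taller in the 3 PDBAG1 libraries (70.3 to 73.5 TPM and 64.6 to 71.3 TPM), and the added height comes mainly from PDK1 and PDP1.

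Members of the same class were compared as log2 ratios of TPM within each library for 6 pairs. With 3 libraries against 3 the smallest two-sided p that an exact permutation test can give is 0.1, so no pair could pass 0.05. PDK1 over PDK2 moved most, from -1.52 ± 0.0535 to -0.33 ± 0.148 (n = 3 each, SD; exact permutation p = 0.1, adjusted over the 6 pairs 0.12). PDK1 over PDK3 was higher by 0.73 on the log2 scale and PDK2 over PDK3 lower by a difference of -0.47. PDP1 over PDP2 was higher by 0.43. In these pairs, and in DLAT over PDHX (a difference of 0.13), the groups did not overlap and the exact p was 0.1. PDHA1 over PDHB overlapped, with a difference of 0.08 (exact permutation p = 0.2).

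The sequence before the start of the kinase genes is shown because hypoxia-inducible factors, known regulators of PDK1 and PDK3, recognise a short core written ACGTG or GCGTG. Windows of 300 bases around annotated starts (RefSeq, GRCh38.p14, 250 bases before to 50 after) were given for 9 of the 10 genes, all but PDP1, and were searched on both strands. Of the 14832 windows of genes tested, 60.2% held a match, as did 48.4% of all 35116 windows. PDK1 has 2 windows. The one shown ends at the downstream start (chr2:172555970-172556089, plus strand) and has 2 matches, both on the opposite strand, and the other, with a GC content of 36.3%, has none. Of the 3 windows of PDK2, the one shown (chr17:50095181-50095350, plus strand) holds 3 matches, of which 2 are the same palindrome CACGTG read on each strand, and the others hold none. The stretch of PDK3 (chrX:24465166-24465285, plus strand) holds 2, and that of PDK4 (chr7:95596517-95596636, minus strand) holds none. Each stretch is written along its gene and ends at the base before the start, and capitals mark the matches, which read CACGT or CACGC where the core lies on the opposite strand.

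PDK1: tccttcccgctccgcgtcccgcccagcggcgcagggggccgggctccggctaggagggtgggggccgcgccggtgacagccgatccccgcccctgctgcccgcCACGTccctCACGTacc
PDK2: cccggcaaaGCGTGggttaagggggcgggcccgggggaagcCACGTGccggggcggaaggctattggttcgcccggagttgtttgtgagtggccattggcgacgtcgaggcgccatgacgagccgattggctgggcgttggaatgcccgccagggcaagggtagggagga
PDK3: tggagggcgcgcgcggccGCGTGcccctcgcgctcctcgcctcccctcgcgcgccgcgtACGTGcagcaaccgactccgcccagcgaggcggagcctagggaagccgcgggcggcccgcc
PDK4: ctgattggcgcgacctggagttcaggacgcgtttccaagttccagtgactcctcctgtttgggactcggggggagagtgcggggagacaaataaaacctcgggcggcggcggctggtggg

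Matches were also counted in the windows of the other members, and their relation to the changes in expression was not tested. PDHB had 6 matches in its window, the highest count among the members, with 1 palindrome counted on both strands. Its 250 bases before the start are also shown (chr3:58433833-58434082, minus strand). PDHA1 had 4 matches, PDP2 and DLAT 3 each, as did the PDK2 window shown, and 1 of the 2 windows of PDHX had 2. In PDP2, 2 of the 3 are 1 palindrome counted on both strands, and in DLAT 2 of the 3 overlap. All windows were counted in this way. Of all windows of genes tested, 14.3% had 3 or more, a share not matched for GC content. A match describes letters in these windows and not a bound site.

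PDHB: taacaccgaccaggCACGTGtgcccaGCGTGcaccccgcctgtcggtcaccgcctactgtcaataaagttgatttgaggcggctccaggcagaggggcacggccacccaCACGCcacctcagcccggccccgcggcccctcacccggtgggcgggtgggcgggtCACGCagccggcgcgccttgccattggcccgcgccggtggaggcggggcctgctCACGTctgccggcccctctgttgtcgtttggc

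Genes around the complex were read in 5 lists. The accessory and cofactor list covers the E3 enzyme, the regulatory subunit of the phosphatase, thiamine and lipoate supply and mitochondrial deacylases. All 21 of its genes were tested, and 6 fell, none rose and 15 did not pass (median log2 fold change -0.07), beside 15.9% lower and 21.7% higher among all genes tested. BOLA3, ISCU and NFU1, which serve the iron-sulfur clusters needed to make lipoate, fell by 0.34, 0.19 and 0.16 on the log2 scale. Among the other iron-sulfur and lipoate genes of the list, ISCA1 and ISCA2 also fell. NFS1, IBA57, GLRX5, FDX2, LIAS, LIPT1 and LIPT2 did not pass. DLD, the E3 enzyme, was at 69.8 ± 2.21 and 66.4 ± 3.32 TPM (n = 3 each, SD) and did not pass (adjusted p = 0.292 by limma). PDPR, the phosphatase regulatory subunit, was at 14.3 ± 0.685 and 15.9 ± 1.05 TPM (n = 3 each, SD) and did not pass either (adjusted p = 0.143 by limma).

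Of the genes for pyruvate entry and its other fates, 10 of 11 were tested, with a median log2 fold change of -0.0048. Of these 10, 4 rose and 2 fell, beside 21.7% higher and 15.9% lower among all genes tested. LDHA, which turns pyruvate into lactate, rose from 2524 ± 49.8 to 3673 ± 100 TPM (n = 3 each, SD; log2 fold change 0.54, adjusted p = 3.48e-08 by limma). PC, which carboxylates pyruvate to oxaloacetate, rose from 22.9 ± 1.84 to 34.1 ± 0.306 TPM (n = 3 each, SD; log2 fold change 0.55), and GPT2, an alanine transaminase, had a log2 fold change of 0.31. MPC1, a subunit of the mitochondrial pyruvate carrier, fell from 55.8 ± 0.393 to 46.9 ± 1.32 TPM (n = 3 each, SD; log2 fold change -0.25, adjusted p = 0.00131 by limma). MPC2, its other subunit, was at 90.5 ± 3.15 and 90.0 ± 1.25 TPM (n = 3 each, SD) and did not pass (adjusted p = 0.912 by limma). LDHB, another lactate dehydrogenase gene, fell from 1079 ± 12.1 to 954 ± 23.6 TPM (n = 3 each, SD; log2 fold change -0.18, adjusted p = 0.000843 by limma). The sister list holds the 2-oxoglutarate and branched-chain ketoacid dehydrogenases and the kinase and phosphatase of the latter. It also holds DHTKD1, a related E1 enzyme, and PDHA2, another E1 alpha gene of pyruvate dehydrogenase, which was not measured. In it 8 of 10 genes were tested. BCKDHA alone passed (log2 fold change 0.24, adjusted p = 0.0256 by limma), beside 37.6% of all genes tested.

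Among 13 transcription regulators known to act on these genes 4 rose, 1 fell and 8 did not pass, so that 5 of 13 were called, beside 37.6% of all genes tested. EPAS1, which encodes HIF-2α, rose from 35.2 ± 0.946 to 52.7 ± 3.36 TPM (n = 3 each, SD; log2 fold change 0.57, adjusted p = 5.42e-06 by limma). ARNT, which encodes the shared HIF-1β partner, and FOXO3, a forkhead factor, each had a log2 fold change of 0.32. PPARG fell by 0.22 on the log2 scale. The remaining rise, named after its value was seen, was that of HIF1A, with a log2 fold change of 0.13 (adjusted p = 0.0423 by limma) and overlapping groups. All 16 genes of a list of HIF targets rose (21.7% of all genes tested), with a median log2 fold change of 0.83. Of the 16, 11 rose at least 1.5-fold (2.86% of all genes tested). CA9 entered this count through the PDBAG1 libraries alone (0.20 to 0.40 TPM with vehicle, 1.08 to 1.33 TPM with PDBAG1), so that its direction was set by the expression filter, and without it, an alternative chosen after seeing the data, 15 rose, 10 of them at least 1.5-fold, with a median of 0.87. PDK1 lay above this median, PDK3 below it. NDRG1 had the highest log2 fold change of that list at 2.18, followed by ANKRD37 at 1.64 and VEGFA at 1.23, and BNIP3 rose from 184 to 423 TPM. LDHA counts in this list and among the pyruvate genes. CD68, PECAM1 and PDGFRB, named above as markers of other cell types, were higher in the same libraries, with log2 fold changes of 0.31, 0.96 and 0.31, and their part in these lists was not tested.

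**Figure D4:**
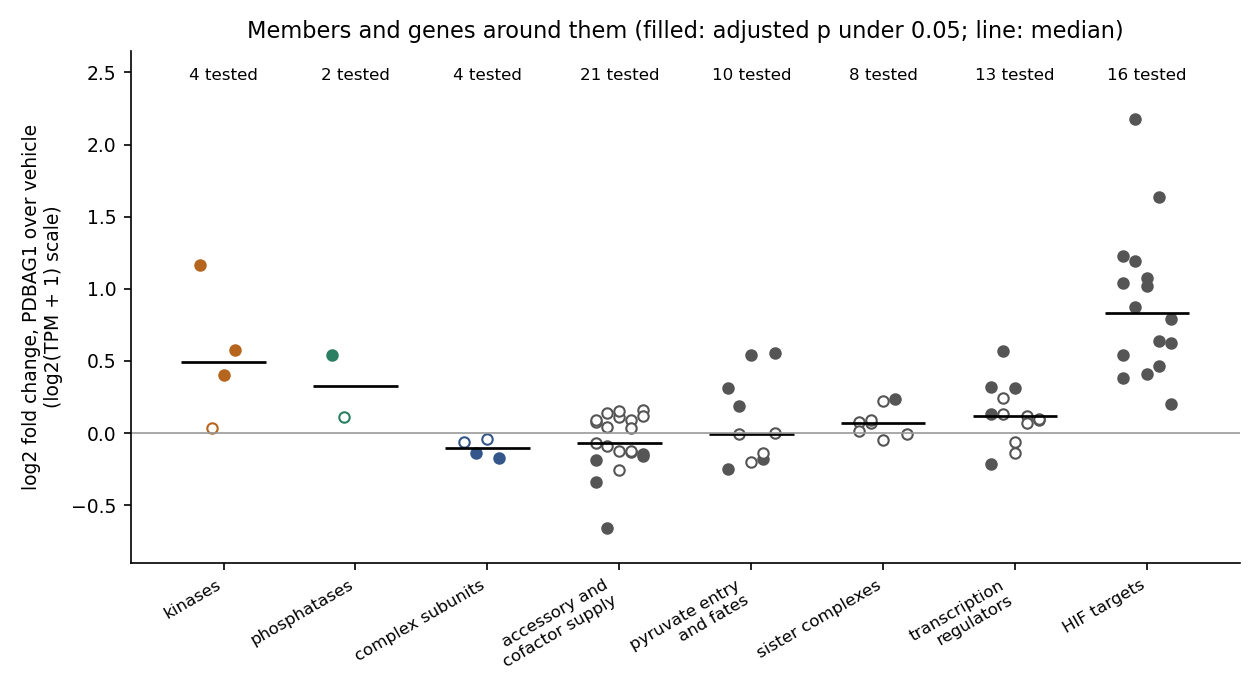
Log2 fold change of PDBAG1 over vehicle (log2(TPM + 1) scale) for each tested gene of the 3 classes and of 5 lists around them, with a line at each median. Filled points passed an adjusted p of 0.05. The HIF targets are all above 0 with a median of 0.83, whereas the subunits (median -0.10) and the accessory and cofactor genes (median -0.07) centre below 0. The direction of CA9 among the HIF targets was set by the expression filter, and without CA9 their median was 0.87.

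The genes whose log2(TPM + 1) followed PDK1 most closely over the 6 libraries were BNIP3L, a mitophagy receptor that is also among the HIF targets, PLIN2, a lipid droplet coat protein, and INSIG1, a brake on sterol synthesis, each with a Pearson r of 0.999. Their log2 fold changes were 1.02, 0.60 and 1.00. With 3 libraries on each side r mainly follows the gap between the groups, and 1066 genes had an r over 0.95 with PDK1.

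**Figure D5:**
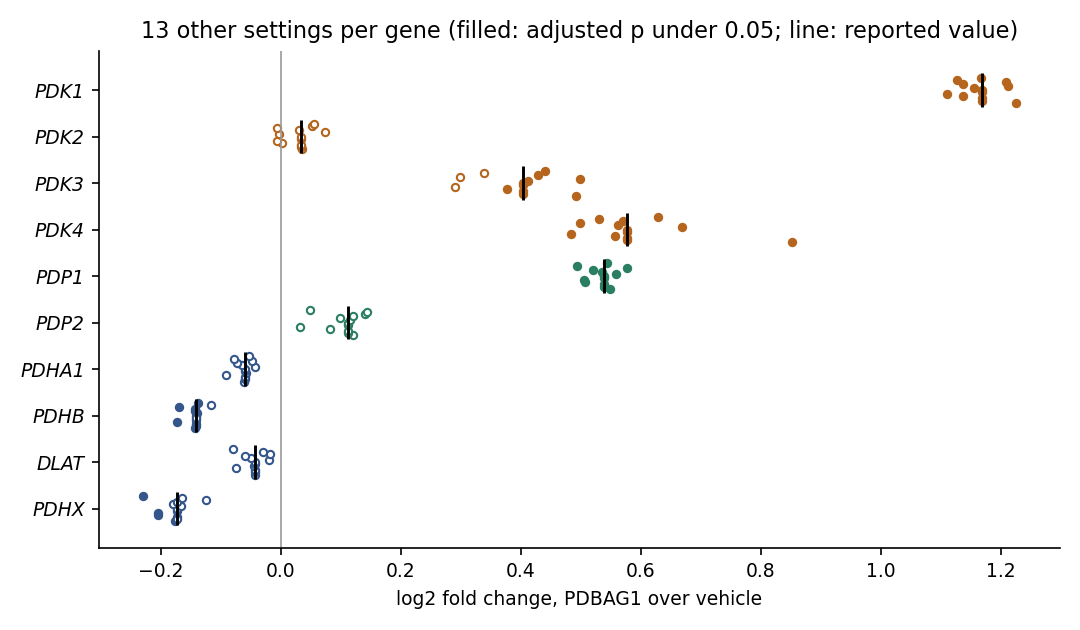
Log2 fold change of each gene under 13 other settings (points, filled where the adjusted p was under 0.05) and as reported (black line). PDK1, PDK4 and PDP1 are filled throughout, PDK3, PDHB and PDHX are filled in part, and PDK2 falls on both sides of 0.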

How the data were processed

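RNA-seq was performed on MDA-MB-231 cells treated with vehicle or PDBAG1, 3 libraries each, grouped by the sample labels. According to the methods, the authors aligned filtered reads to GRCh38 using HISAT2 and derived gene-level expression. The submitters' processing notes name HISAT2 2.0.4, Bowtie2 2.2.5 and RSEM 1.2.12. The methods describe FPKM, whereas the deposited values are TPM rounded to 2 decimals and summing to the same total per library. The annotation release is not given in the sources used here.

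Genes that reached 1 TPM in at least 3 libraries entered the test as log2(TPM + 1) in R 4.3.3 with limma 3.58.1 (lmFit, eBayes with trend) across all 12582 genes, with calls at a Benjamini-Hochberg adjusted p of 0.05 and, where stated, a fold of at least 1.5. Exact permutation tests used scipy 1.17.1. The steps were tested on simulated data. The genes, the lists and the tests were chosen with earlier results of these data known. Named genes were the 10 members, up to 4 passing genes per list with the largest changes, and the 3 genes most correlated with PDK1. Some other list genes were named in addition to this rule. 1 gene that the rule names is not reported here.

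Alternatives were a pseudocount of 0.1, other filters, median-of-ratios scaling, quantile normalization, no variance trend, a replicate block, leaving out each library, and other fold limits. Replicate numbers share no stated origin.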

Additional observations from a re-analysis of the deposited data

How the results depend on the processing

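PDK1, PDK4 and PDP1 kept direction and call in all 13 other settings. Over the 10 genes and these settings, 114 of 130 values kept direction and side of the threshold, 13 lost the call (PDK3, PDHB and PDHX) and 3 changed sign, all of PDK2, which was not called (-0.0056 under quantile normalization, and -0.0051 to 0.0748 with single libraries left out, with -0.0025 without vehicle replicate 1). The number of the 10 genes that passed, 6 in the report, was 3 without PDBAG1 replicate 2 (PDK1, PDK4 and PDP1) and ranged from 3 to 6 over the left-out libraries. The kinase median was 0.67 with a pseudocount of 0.1, which compresses low genes less. The phosphatase median was 0.29 under median-of-ratios scaling, 0.27 under quantile normalization and 0.30 to 0.36 with single libraries left out. The subunit median was -0.13 under median-of-ratios scaling. The shares of PDK1 and PDP1 and the kinase to subunit ratio kept their direction and moved by less than the spread between replicates with each library left out.

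Over all genes, 360 rose and 60 fell by at least 1.5-fold, 420 in all, against 80 when 2-fold was required and 4736 without any fold limit. Quantile normalization gave 287 higher and 94 lower, a pseudocount of 0.1 gave 630 in all, and left-out libraries gave 406 to 480. Fitting replicate numbers as a block called 427 genes at 1.5-fold, and 5 of the 10 members had an adjusted p under 0.05 with no fold limit, PDHX being lost (adjusted p = 0.0670 by limma). Deviations from the group means were not shared by libraries with the same number (r of -0.21, 0.01 and -0.08). The depth is unknown, so the counting error behind these values could not be compared between genes.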
